A study of Danio rerio with 9 samples.

Results

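The insulin-like growth factor (IGF) family was taken as every zebrafish gene whose symbol names an IGF, an IGF type 1 receptor or an IGF binding protein, and that a probe set with a single gene symbol measured. These were 10 of the 8793 genes measured in this way. They comprised the ligands igf1, igf2a and igf2b, the receptors igf1ra and igf1rb, and the binding proteins igfbp1a, igfbp1b, igfbp2a, igfbp3 and igfbp5b. They were read by 13 of the 15502 probe sets tested, because igfbp1a, igfbp3 and igf1rb each had a pair of probe sets, told apart here by the ends of their identifiers (A1_at and A2_at for igfbp1a, A1_at and S1_at for igfbp3, S1_at and S2_at for igf1rb). All 13 are reported. Membership was set by name and not by signal, but the family was chosen with earlier results of these data known.

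The series holds whole eyes of wild type zebrafish on Affymetrix Zebrafish Genome Arrays, with 3 arrays at each of 3, 4 and 5 days post fertilisation (dpf). The labels name no treatment, and by the labels the groups differ in age only. The study describes the eyes at 3 and 5 dpf and not those at 4 dpf. The methods of the study state biological replicates at 3 and 5 dpf, whereas the labels at 4 dpf give only replicate numbers, so that p-values there may measure technical spread. The number of larvae behind each array is not stated. Any difference in how the 4 dpf arrays were handled and the effect of age cannot be told apart.

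IGFs are small secreted growth factors that act through receptor tyrosine kinases of the insulin receptor family, and through them on the PI3K-Akt and TOR relays that govern cell growth. IGF binding proteins (IGFBPs) bind the ligands outside the cell, and can hold them from the receptor or carry them to it. In zebrafish, IGFBP-1 is known as an inhibitor of growth whose message rises in hypoxia and fasting. Zebrafish carry 2 copies, named a and b, of many family genes, and igfbp1a with igfbp1b, igf1ra with igf1rb and igf2a with igf2b are such pairs.

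The oligonucleotides given for this family were the PCR primers that the study designed for igfbp1, a name that the annotation lists as an older name of igfbp1a. They are shown because igfbp1 is the member that the study also measured by PCR, with no part in capitals. The forward primer has 21 bases and the reverse primer 20 bases, and each holds 10 G or C bases. Which copy they amplify was not determined.
igfbp1 forward primer: ggtcttgttgtcagaatggga
igfbp1 reverse primer: aacacaaacactgtggagcg

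Older names of the family cross between copies, which matters when these values are set beside other sources. In the RefSeq gene table, on assembly GRCz12tu, igf2a carries the older name igf2b and igf2b the older name igf2a. In the same table igfbp2a carries the older name igfbp2b, and igfbp5b the older name igfbp5a. The table places igfbp3 directly beside igfbp1a among protein-coding genes, igfbp2a beside igfbp5a, and igfbp5b beside igfbp2b.

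The signals are log2 values that the authors made with GCRMA, and ran from 0.95 to 15.9. Array medians lay between 5.70 and 5.79. Arrays of the same age correlated at 0.983 to 0.995 and arrays of different ages at 0.964 to 0.991. The 12 genes taken to define the eye lay above the array medians on every array. They ran from cryaa of the lens, with a lowest signal of 6.74 and a median of 8.27, and pax6b, an eye field factor, with 8.73 to 9.64 up to gnat2 of cone photoreceptors with 13.1 to 13.8, rpe65a of the pigment epithelium with 13.2 to 14.5 and crybb1 of the lens with 14.2 to 15.1. Genes of tissues outside the eye were also present, and levels of these are given beside the members. In whole eyes, fewer cells of a type and less RNA per cell cannot be told apart.

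Between 3 and 5 dpf, both copies of igfbp1 rose and igfbp2a and igfbp3 fell. The messages of igfbp1a and igfbp1b were about 4.16-fold and 5.43-fold higher at 5 dpf by the probe set of each that passed the test (the second igfbp1a probe set, 3.27-fold higher, did not pass, with an adjusted p of 0.098), that of igfbp2a was 2.74-fold lower, and that of igfbp3 had a log2 fold change of -1.32 by the probe set of its pair that passed. The igfbp1 calls were the least firm of the 4. With 1 array left out that of igfbp1a was kept in 0 of 6 fits and that of igfbp1b in 1 of 6. That of igfbp3 was kept in 2 and that of igfbp2a in 5. Fewer probe sets of any kind were called in such fits, and the 831 calls over all probe sets became 259 to 797. Quantile normalization, a floor of 4 on the signals and the replicate number as a block each ended both igfbp1 calls. The floor left the log2 fold change of igfbp1a at 2.06 and took that of igfbp1b to 2.21. It lowered the calls over all probe sets to 409. The ligand igf2a was 1.91-fold higher, with a small error but under the 2-fold limit. The ligands igf1 and igf2b, both receptors and igfbp5b did not pass the test. A probe set was called when its adjusted p-value (limma, eBayes, Benjamini-Hochberg over all 15502 probe sets) was under 0.05 and its change at least 2-fold. By this rule 4 of the 13 probe sets were called, 2 higher and 2 lower, where 2.97% of all probe sets were called higher and 2.39% lower. At an unadjusted p-value under 0.05 there were 6 of the 13, and 5462 of all 15502 probe sets, so this count is no mark of the family. The median log2 fold change of the 13 was 0.16, against 0.10 for all probe sets.

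From 3 to 4 dpf, igfbp2a was the single member called, and it fell. Over all probe sets 1.62% were called higher and 1.66% lower in this comparison. An unadjusted p-value under 0.05 was reached by 4 of the 13 members and by 4607 of all 15502 probe sets. From 4 to 5 dpf no member was called, and the shares of all probe sets called were 0.264% higher and 0.174% lower. Here 3 members and 3615 of all 15502 probe sets had an unadjusted p-value under 0.05. The arrays at 3 and 5 dpf did not overlap for 6 of the 13 probe sets. Without regard to a test, this held for 55.4% of all probe sets, so that a lack of overlap is no mark of a member here.

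**Figure D1:**
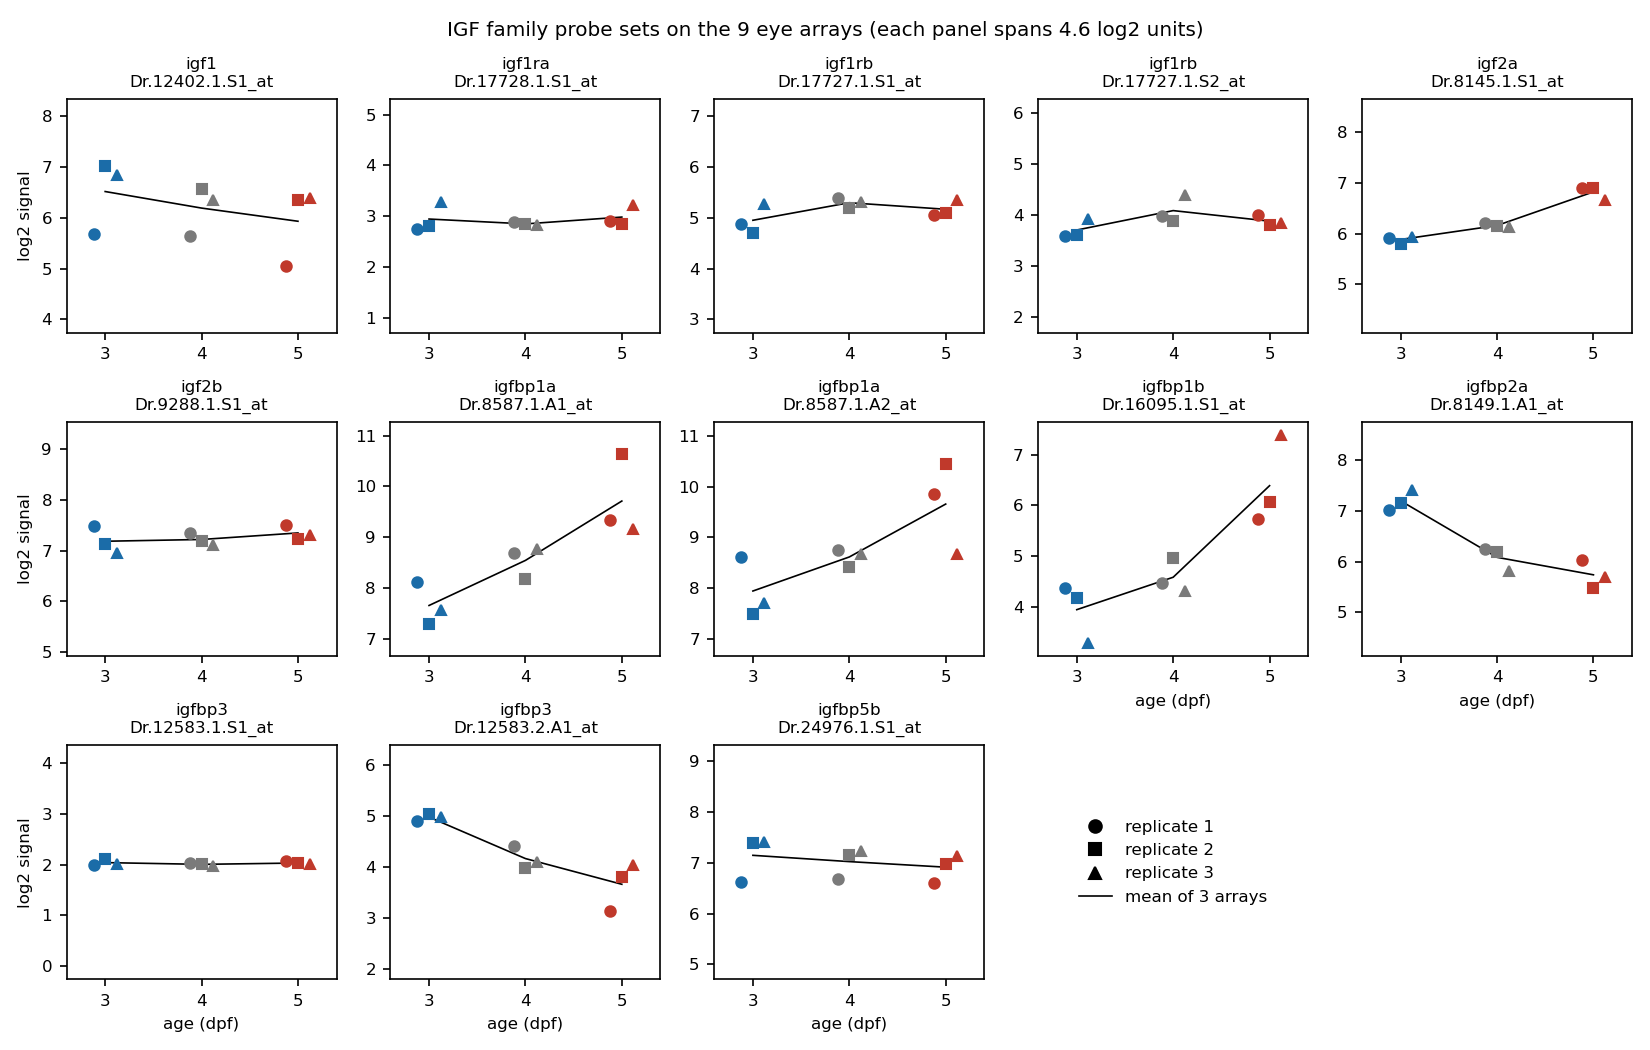
log2 signal (vertical axis) of the 13 IGF family probe sets at 3, 4 and 5 dpf (horizontal axis). Each symbol is 1 array, its shape gives the replicate number and the line joins the means of 3 arrays. Both igfbp1a probe sets and igfbp1b climb towards 5 dpf with a wide spread there, igfbp2a and a single igfbp3 probe set descend, and replicate 1 is the lowest symbol of igf1 and igfbp5b at each age.

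Of the binding proteins, igfbp1b, one of the 2 zebrafish copies of IGFBP-1, had the largest log2 fold change in the family. Its log2 signals were 4.37, 4.18 and 3.30 at 3 dpf, 4.48, 4.97 and 4.32 at 4 dpf, and 5.73, 6.06 and 7.38 at 5 dpf. Every array at 5 dpf lay above every array at the earlier ages, while 3 and 4 dpf overlapped. The log2 fold change from 3 to 5 dpf was 2.44 (SE 0.52, 95% confidence interval 1.14 to 3.74, limma adjusted p = 0.043). The step from 4 to 5 dpf was 1.80 (SE 0.47, adjusted p = 0.061) and the step from 3 to 4 dpf was 0.64 (SE 0.47, adjusted p = 0.404). The later step exceeded the earlier one by 1.16, but with a 95% confidence interval of -0.73 to 3.06 (adjusted p = 0.578 with all 9 arrays), an interval that includes 0. The call from 3 to 5 dpf was close to the limit. With 1 array left out at a time, the adjusted p-value from limma was lowest when 5 dpf replicate 1 was dropped (0.047, the only fit that kept the call) and highest when 3 dpf replicate 3 was dropped (0.127), at log2 fold changes of 1.95 to 2.77.

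For igfbp1a, the other copy of IGFBP-1, both probe sets had higher means at 5 dpf. Probe set A1_at had log2 signals of 8.11, 7.29 and 7.57 at 3 dpf, 8.69, 8.18 and 8.76 at 4 dpf, and 9.33, 10.64 and 9.16 at 5 dpf. The 3 ages did not overlap, and 5 dpf replicate 2 was the highest array. From 3 to 5 dpf the log2 fold change was 2.06 (SE 0.45, 95% confidence interval 0.91 to 3.20, limma adjusted p = 0.048). It was 0.89 (SE 0.41, adjusted p = 0.200) from 3 to 4 dpf and 1.17 (SE 0.41, adjusted p = 0.140) from 4 to 5 dpf, and neither step was called. The later step exceeded the earlier by 0.28, with a wide 95% confidence interval of -1.39 to 1.95 (limma adjusted p = 0.943). Probe set A2_at had log2 signals of 8.62, 7.50 and 7.72 at 3 dpf, 8.75, 8.41 and 8.68 at 4 dpf, and 9.86, 10.44 and 8.67 at 5 dpf. Here 5 dpf replicate 3 lay within the 4 dpf arrays and only just above the highest 3 dpf array. Its log2 fold change from 3 to 5 dpf was 1.71 (SE 0.54, 95% confidence interval 0.35 to 3.07), with an adjusted p of 0.098 from limma, so it was not called.

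The probe sets of igfbp1a followed each other closely, with a correlation of 0.95 over the 9 arrays. Their log2 fold changes from 3 to 5 dpf differed by 0.34 (95% confidence interval -0.37 to 1.06, limma adjusted p = 0.612 over 2608 pairs of probe sets of the same gene), so the difference in call was not matched by a difference in size that passed a test. Of all such pairs, 4.95% differed by this test. The call of A1_at was lost in each of the 6 fits that left out 1 array. The adjusted p-value from limma then ran from 0.051, without 5 dpf replicate 2, to 0.143, without 3 dpf replicate 3, at log2 fold changes of 1.59 to 2.33. Under quantile normalization, the floor and the replicate block the adjusted p-values of both copies were 0.054 to 0.107.

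The copies of IGFBP-1 did not peak on the same array at 5 dpf. Both igfbp1a probe sets were highest on replicate 2 and lowest on replicate 3, whereas igfbp1b was highest on replicate 3. Over the 9 arrays igfbp1b correlated with the igfbp1a probe sets at 0.71 and 0.59, lower than these correlated with each other. Samples of the 3 ages underlie these correlations, so the shift with age is part of them. The log2 fold change of igfbp1a from 3 to 5 dpf, by A2_at, was 0.73 below that of igfbp1b, with a 95% confidence interval of -3.64 to 2.18. In an exact two-sided permutation test of this difference p was 0.6, and 3 arrays against 3 cannot give less than 0.1. A difference of several-fold between the copies in either direction was within the error, and the sign turned (0.26) without 5 dpf replicate 3.

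Some marker genes of liver, pancreas and gut rose over the same interval as the igfbp1 copies. Over all probe sets 2.97% were called higher at 5 than at 3 dpf and 2.39% lower. Of 24 pancreas and gut marker genes measured, 6 were called higher at 5 than at 3 dpf and none lower. The log2 of their summed signal on replicates 1, 2 and 3 was 8.73, 10.59 and 8.80 at 3 dpf, 10.04, 10.43 and 9.30 at 4 dpf, and 11.47, 12.17 and 13.18 at 5 dpf. At 4 and 5 dpf this sum was highest on the array where igfbp1b was highest, but at 3 dpf it was highest on replicate 2, where igfbp1b was not and where both igfbp1a probe sets were lowest. At 5 dpf it was highest on replicate 3, where igfbp1a was lowest. Digestive enzyme genes made up these calls, while pdx1, a pancreatic transcription factor, was at 2.46 and 2.58 at 3 and 5 dpf, and the gut transporter gene slc15a1b at 3.44 and 3.71.

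From 3 to 5 dpf 2.97% of all probe sets were called higher and 2.39% lower. Of 28 liver marker genes measured, 3 were called higher at 5 than at 3 dpf and none lower. The log2 of their summed signal on replicates 1, 2 and 3 was 14.68, 14.29 and 14.04 at 3 dpf, 14.93, 15.17 and 14.59 at 4 dpf, and 15.13, 14.96 and 15.46 at 5 dpf. At 5 dpf the liver sum was lowest on replicate 2, where igfbp1a was highest, and highest on replicate 3, where igfbp1b was highest. The sums of lens (15.64, 15.97 and 16.16) and of epidermis and cornea markers (15.47, 15.68 and 15.73) were also highest on replicate 3. A peak on that array was thus not particular to digestive organs. At 3 and 4 dpf the order of the liver sum over the replicates was that of igfbp1b. Neither order was particular to liver. Sums of Muller glia (14.39, 14.10 and 13.99), leukocyte, pigment cell and inner retina markers had it at 3 dpf. Sums of photoreceptor (17.45, 17.46 and 17.40) and of pancreas and gut markers had it at 4 dpf. The liver fatty acid binding protein gene fabp10a had means of 3.50 ± 0.34 at 3 dpf and 6.08 ± 1.88 at 5 dpf (SD, n = 3 each), and was not called (limma adjusted p = 0.126). Liver is a known source of IGFBP-1 in vertebrates.

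The summed signal of leukocyte markers had the same order as igfbp1a over the arrays of 5 dpf. This order was not particular to leukocytes. Sums of red blood cell (12.91, 13.53 and 12.57), vessel, cartilage and inner retina markers had it too, as had those of the hypoxia and fasting lists. The values of the leukocyte markers follow. Of 13 measured, 0 were called in either direction by limma from 3 to 5 dpf. An unadjusted p-value under 0.05 was reached by 4 of them, and by 5462 of all 15502 probe sets. The log2 of their summed signal on replicates 1, 2 and 3 was 9.09, 8.71 and 8.63 at 3 dpf, 9.42, 9.31 and 9.25 at 4 dpf, and 9.89, 10.47 and 8.66 at 5 dpf. Like igfbp1a, it was highest on replicate 1 at 3 dpf, and highest on replicate 2 and lowest on replicate 3 at 5 dpf. Unlike igfbp1a, it was lowest on replicate 3 at 3 and 4 dpf, where both igfbp1a probe sets were lowest on replicate 2. The lysozyme gene lyz had means of 6.86 ± 0.50 and 7.98 ± 1.64 at 3 and 5 dpf (SD, n = 3 each), whereas ptprc, the common leukocyte antigen gene, was at 2.57 and 2.77 and the neutrophil peroxidase gene mpx at 2.71 and 2.92, near the lower end of the signals. The part of liver, pancreas, gut and leukocytes in the igfbp1a and igfbp1b results was not tested.

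The probe sets whose signals most resembled each copy were sought over the 9 arrays. Among 6553 probe sets outside the family with a single gene symbol and a mean signal of at least 5, the 5 most like igfbp1a (A2_at, the brighter probe set) were calcoco1a, socs1a, btg2, gpn1 and cebpd, with correlations of 0.98, 0.97, 0.97, 0.97 and 0.97. The gene socs1a encodes an inhibitor of cytokine signalling, btg2 an antiproliferative factor, and cebpd a transcription factor of the acute phase and stress responses. The log2 signals of cebpd were 8.34, 7.48 and 7.70 at 3 dpf, 8.74, 8.20 and 8.74 at 4 dpf, and 9.77, 10.46 and 9.27 at 5 dpf. They were high and low on the same arrays as those of igfbp1a, with replicate 1 the highest at 3 dpf and replicate 2 at 5 dpf. As cebpd was picked for its correlation with igfbp1a over these arrays, this likeness follows from the choice. From 3 to 5 dpf cebpd was called (log2 fold change 2.00, limma adjusted p = 0.031). The others were not, with 2.07 for socs1a (adjusted p = 0.052), 1.39 for btg2 (0.087), 0.81 for calcoco1a (0.091) and 0.21 for gpn1 (0.189). Age is part of the correlation by which all 5 were picked, so a rise with age also follows from the choice.

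The 5 probe sets most like igfbp1b were those of cyp26a1, mycn, gnptg, zfand5a and ctrb.2, with correlations of 0.97, 0.96, 0.96, 0.96 and 0.96. The gene cyp26a1 encodes an enzyme that degrades retinoic acid, mycn a transcription factor of growth, and ctrb.2 a chymotrypsinogen of the exocrine pancreas. The log2 signals of ctrb.2 were 3.25, 3.85 and 3.27 at 3 dpf, 4.98, 5.49 and 4.56 at 4 dpf, and 6.58, 7.21 and 8.54 at 5 dpf. Like igfbp1b, it was highest on replicate 2 at 4 dpf and on replicate 3 at 5 dpf, and it is 1 of the 24 pancreas and gut markers. As ctrb.2 was picked for its correlation with igfbp1b over these arrays, the shared high arrays follow from the choice. Its 3 dpf signals lay under the mean limit of 5, which it passed through the later ages. None of the 5 genes nearest to igfbp1a was among the 5 nearest to igfbp1b. With only 5 of 6553 probe sets taken for each copy, the lack of a shared gene is no test of a difference between them. These correlations describe 9 arrays at 3 ages and carry no test.

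**Figure D2:**
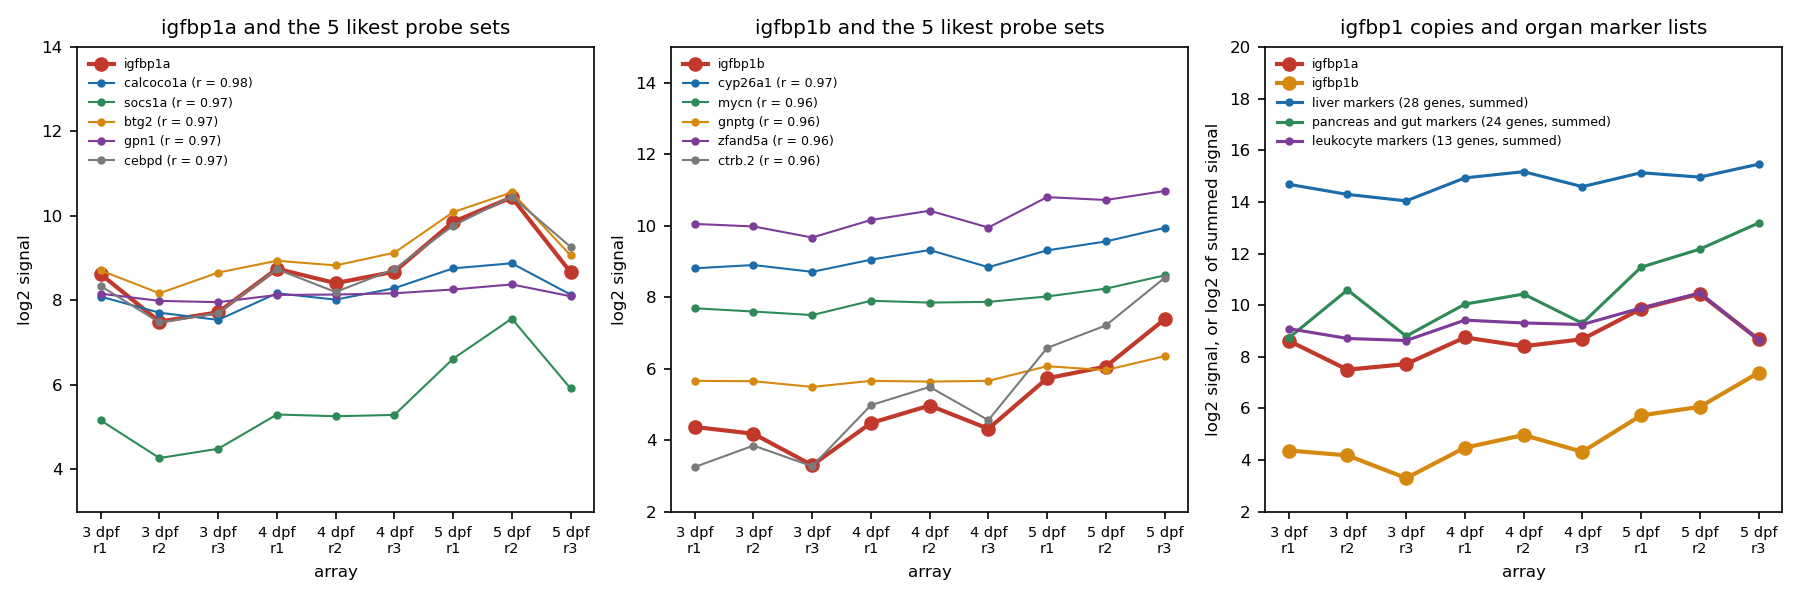
log2 signal (vertical axis) on the 9 arrays in order of age and replicate (r1 to r3, horizontal axis) of igfbp1a with its 5 likest probe sets (left), igfbp1b with its 5 likest (middle), and both copies with the log2 of the summed signals of liver, of pancreas and gut, and of leukocyte markers (right). At 5 dpf igfbp1a is highest on replicate 2 with cebpd, socs1a and the leukocyte sum. At this age igfbp1b is highest on replicate 3 with ctrb.2, the liver sum, and the pancreas and gut sum. Sums not drawn share these peaks, such as those of red blood cell markers with igfbp1a and of lens markers with igfbp1b. The likest probe sets were picked for their correlation over these arrays, and ctrb.2 is part of the pancreas and gut sum.

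The binding protein gene igfbp2a, whose product inhibits growth in zebrafish embryos when in excess, fell from 3 to 4 dpf and was lower than at 3 dpf also at 5 dpf. Its log2 signals were 7.02, 7.16 and 7.40 at 3 dpf, 6.25, 6.19 and 5.81 at 4 dpf, and 6.03, 5.49 and 5.70 at 5 dpf. All arrays at 3 dpf lay above all later arrays, and 4 and 5 dpf overlapped. It was lower by 1.11 on the log2 scale at 4 than at 3 dpf (log2 fold change -1.11, SE 0.18, limma adjusted p = 0.0096) and at 5 than at 3 dpf the log2 fold change was -1.46 (SE 0.17, 95% confidence interval -1.89 to -1.02, adjusted p = 0.011). The step from 4 to 5 dpf was -0.34 (SE 0.18, adjusted p = 0.305). The steps differed by 0.77 (95% confidence interval 0.04 to 1.49), which did not pass adjustment over all probe sets (limma adjusted p = 0.244). The call from 3 to 5 dpf was kept in 5 of 6 fits that left out 1 array, the exception being the fit without 3 dpf replicate 3 (adjusted p = 0.051). The call from 3 to 4 dpf was kept in 8 of 9, the exception being the fit without 4 dpf replicate 3, where the change was under 2-fold (-0.97).

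The binding protein gene igfbp3, whose product is the main carrier of IGFs in mammalian blood, fell from 3 to 5 dpf by one of its probe sets. Probe set A1_at had log2 signals of 4.91, 5.05 and 4.99 at 3 dpf, 4.42, 3.99 and 4.09 at 4 dpf, and 3.14, 3.81 and 4.04 at 5 dpf. The arrays at 3 dpf were tightly grouped and above all others. The log2 fold change from 3 to 5 dpf was -1.32 (SE 0.24, 95% confidence interval -1.92 to -0.72, limma adjusted p = 0.029). From 3 to 4 dpf it was -0.82 (SE 0.23, adjusted p = 0.055) and from 4 to 5 dpf -0.51 (SE 0.23, adjusted p = 0.234). Probe set S1_at was flat, between 1.98 and 2.11 on all 9 arrays, near the lower end of the signal range, so that it carried little information on the gene. The signals of A1_at were low too, all under the lowest array median of 5.70. From 3 to 5 dpf the pair differed by 1.31 (95% confidence interval 0.68 to 1.94), just short of the limit (limma adjusted p = 0.0503). With signals under 4 set to 4 this difference passed (adjusted p = 0.0019). The call of A1_at was kept in 2 of 6 fits with 1 array left out, those without 5 dpf replicate 1 (adjusted p = 0.015) and without 5 dpf replicate 3 (0.033), and the other 4 gave 0.069 to 0.105. With signals under 4 set to 4, which raises 2 of its arrays at 5 dpf, the log2 fold change was -0.97, under the 2-fold limit, and the call was lost (adjusted p = 0.0067).

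Many muscle and cartilage markers fell over the same interval as igfbp2a and igfbp3. Of all probe sets 2.39% were called lower and 2.97% higher from 3 to 5 dpf. Of 26 skeletal muscle marker genes measured 15 were called lower at 5 than at 3 dpf and none higher, and the log2 of their summed signal was 13.54 to 13.95 at 3 dpf, 11.59 to 11.69 at 4 dpf and 11.31 to 12.13 at 5 dpf. Of 19 cartilage marker genes 9 were called lower and none higher, with a summed signal of 14.57 to 15.01, 12.14 to 12.38 and 11.62 to 11.89. The cartilage matrix genes col2a1a (log2 fold change -3.21, limma adjusted p = 0.0051) and matn1 (-8.36, adjusted p = 0.00047) were among them, whereas the cartilage regulator sox9a was at 2.98 and 2.63 at 3 and 5 dpf and was not called. Epidermis and cornea markers had 4 of 20 called lower and none higher, and vessel markers 0 of 8 in either direction. The part of these tissues in the igfbp2a and igfbp3 results was not tested.

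For igfbp5b, a binding protein gene of muscle and bone in vertebrates, the signals were 6.63, 7.39 and 7.41 at 3 dpf, 6.68, 7.16 and 7.23 at 4 dpf, and 6.61, 6.98 and 7.14 at 5 dpf on the log2 scale. The ages overlapped, and the log2 fold change from 3 to 5 dpf was -0.23 (SE 0.26, 95% confidence interval -0.89 to 0.43, limma adjusted p = 0.518). Replicate 1 was the lowest array at each age.

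Among the ligands, igf2a had the smallest error relative to its change from 3 to 5 dpf. Its product is an IGF-2, a growth factor of the embryo. The log2 signals were 5.92, 5.80 and 5.94 at 3 dpf, 6.21, 6.14 and 6.13 at 4 dpf, and 6.89, 6.90 and 6.67 at 5 dpf. No age overlapped another. From 3 to 5 dpf the log2 fold change was 0.94 (SE 0.088, 95% confidence interval 0.71 to 1.16, limma adjusted p = 0.0072), and from 4 to 5 dpf it was 0.66 (SE 0.074, adjusted p = 0.0053). The step from 3 to 4 dpf was 0.28 (SE 0.074, adjusted p = 0.052). The later step exceeded the earlier by 0.39 (95% confidence interval 0.08 to 0.69), with an adjusted p of 0.156. With any 1 array left out, the adjusted p-value of the change from 3 to 5 dpf stayed between 0.017 and 0.039.

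The other IGF-2 gene, igf2b, had no change that passed the test. Its log2 signals were 7.48, 7.13 and 6.95 at 3 dpf, 7.35, 7.19 and 7.12 at 4 dpf, and 7.51, 7.23 and 7.31 at 5 dpf, and the ages overlapped. The log2 fold change from 3 to 5 dpf was 0.16 (SE 0.16, 95% confidence interval -0.24 to 0.56, limma adjusted p = 0.455). The log2 fold change of igf2a exceeded that of igf2b by 0.77, with a 95% confidence interval of 0.25 to 1.29. The exact two-sided permutation test gave p = 0.1, the smallest that 3 arrays against 3 allow, so this design could not pass 0.05.

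The gene igf1, which encodes the growth factor through which growth hormone acts on the body, varied more between replicates than between ages. Its log2 signals were 5.69, 7.02 and 6.84 at 3 dpf, 5.65, 6.56 and 6.36 at 4 dpf, and 5.06, 6.36 and 6.38 at 5 dpf. Replicate 1 was the lowest array at each age, by 0.54 to 0.87 log2 units under the mean of its age. From 3 to 5 dpf the log2 fold change was -0.59 (SE 0.52, 95% confidence interval -1.89 to 0.72, limma adjusted p = 0.417). It was lower at 5 than at 3 dpf on each of the 3 same-numbered pairs of arrays. With the replicate number as a block the same change had an SE of 0.079 and an adjusted p of 0.031, and remained under the 2-fold limit. A pairing of 3 and 5 dpf arrays by number is not stated, however, and deviations were alike for number 1 alone. Over all probe sets the deviations of same-numbered arrays correlated at 0.54, 0.01 and 0.04 for numbers 1, 2 and 3.

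The replicate 1 arrays shared a pattern across igf1, igfbp5b and igf2b. At each age igf1 and igfbp5b were lowest and igf2b was highest on replicate 1. Over the 9 arrays igf1 correlated with igfbp5b at 0.94 and with igf2b at -0.88, and igfbp5b with igf2b at -0.92. The summed signal of 7 lens markers was likewise lowest on replicate 1 at each age, with 15.21, 15.73 and 15.64 at 3, 4 and 5 dpf against 15.67 to 16.16 on the other arrays. The messages of the IGF2 mRNA-binding proteins igf2bp1 and igf2bp3, which bind and stabilise target messages, had a summed signal of 9.46, 9.53 and 9.36 on the replicate 1 arrays and 10.34 to 10.67 on the others. What the replicate number stands for is not given in the labels, and its part in these values was not tested. The pattern was noticed after the values were seen.

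The type 1 IGF receptors, which bind IGF-1 and IGF-2, were not called in any comparison. The gene igf1ra had log2 signals of 2.74 to 3.28 over the 9 arrays, and its log2 fold change from 3 to 5 dpf was 0.04 (SE 0.18, 95% confidence interval -0.43 to 0.50, limma adjusted p = 0.885). This sign turned to a log2 fold change of -0.12 after quantile normalization, and no direction is drawn from it. For igf1rb, probe set S1_at lay between 4.70 and 5.38 with a log2 fold change of 0.22 (SE 0.17, adjusted p = 0.373), and S2_at between 3.58 and 4.39 with 0.17 (SE 0.12, adjusted p = 0.307). Their log2 fold changes from 3 to 4 dpf were 0.35 and 0.38 and did not pass adjustment (limma adjusted p = 0.180 and 0.142), and their difference from 3 to 5 dpf was 0.04. The 95% confidence intervals of all 3 receptor probe sets from 3 to 5 dpf stayed within 2-fold. The signals of igf1ra lay near the lower end of the range, and no comparison of the copies is drawn from them.

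**Figure D3:**
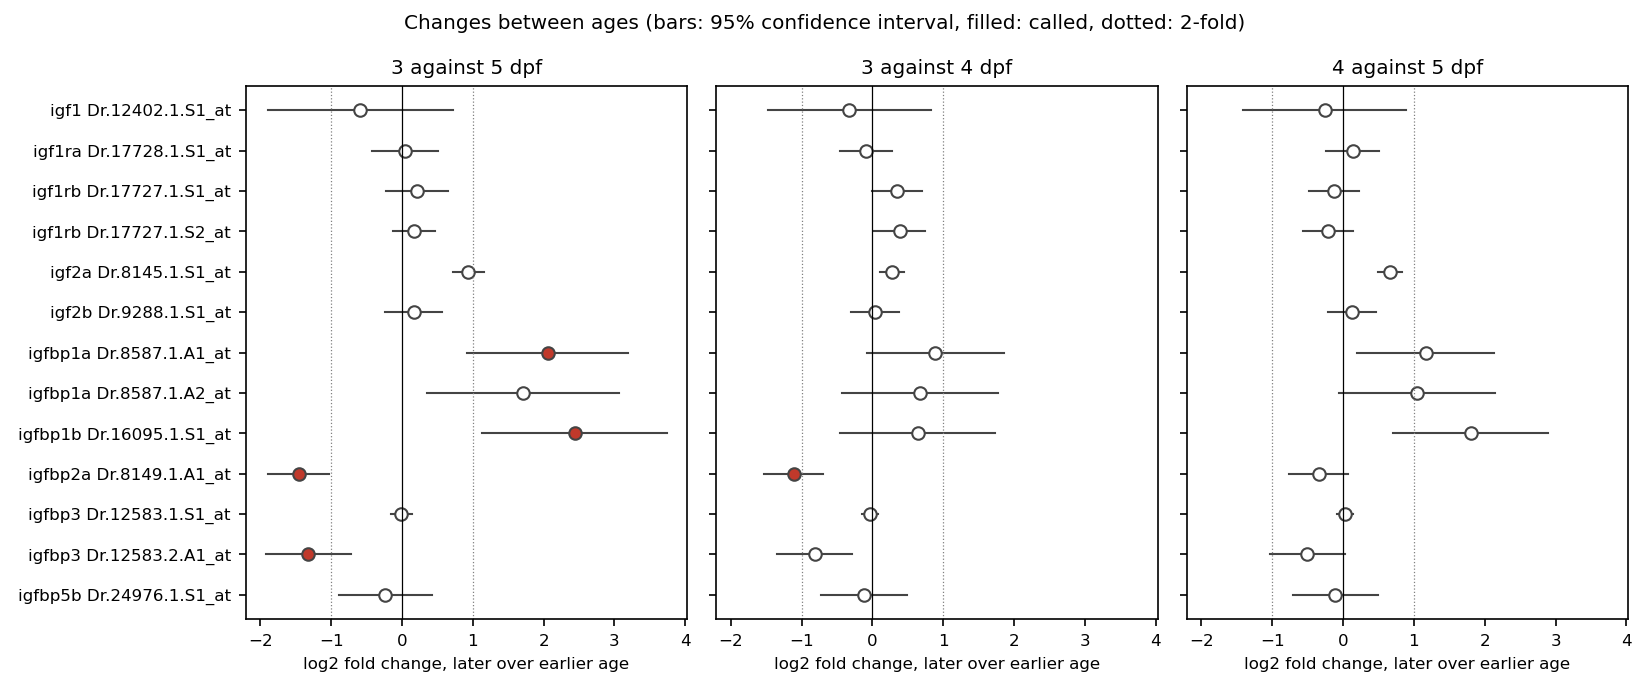
log2 fold change, later over earlier age (horizontal axis), of each of the 13 IGF family probe sets (vertical axis) in the 3 comparisons, with bars for the 95% confidence interval and dotted lines at 2-fold. Filled points passed both limits, which were 4 from 3 to 5 dpf, 1 from 3 to 4 dpf and 0 from 4 to 5 dpf, and no receptor probe set is filled in any panel.

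Other genes of insulin and IGF signalling were taken from lists of ligands, receptors, partners, the growth hormone axis, adaptors, the PI3K-Akt and TOR relays, FoxO factors and IGF2 mRNA-binding proteins. Of 105 listed genes 52 were measured, and 4 were called higher and 0 lower at 5 than at 3 dpf. Over all probe sets 2.97% were called higher and 2.39% lower. Listed genes were read by their brightest probe set, so the 52 and all probe sets are not alike in signal. The 52 had a median log2 fold change of 0.21, and all probe sets one of 0.10. The 4 were insra, socs3a, irs2a and deptor. Of the 52, 2 were called higher and 0 lower from 3 to 4 dpf (1.62% and 1.66% of all probe sets). From 4 to 5 dpf 0 of the 52 were called in either direction (0.264% higher and 0.174% lower of all probe sets). Over this later step 14 of them had an unadjusted p-value under 0.05, as had 3615 of all 15502 probe sets.

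The insulin receptor gene insra rose from 8.05 ± 0.18 at 3 dpf to 9.15 ± 0.29 at 5 dpf (SD, n = 3 each, log2 fold change 1.11, limma adjusted p = 0.021). Its paralogue insrb was at 2.16 and 2.27 (adjusted p = 0.211). The adaptor gene irs2a, which links insulin and IGF receptors to PI3K, rose from 6.63 ± 0.77 to 8.86 ± 0.31 (2.22, adjusted p = 0.031). The gene socs3a encodes an inhibitor of cytokine and growth hormone signalling, and rose from 6.99 ± 0.87 to 9.87 ± 0.11 (2.88, adjusted p = 0.019). The gene deptor encodes an inhibitor of TOR, and rose from 8.18 ± 0.50 to 9.93 ± 0.25 (1.75, adjusted p = 0.022). Both socs3a (1.65, adjusted p = 0.048) and deptor (1.09, adjusted p = 0.031) had already risen from 3 to 4 dpf. The change of irs2a over this step, 1.18, was not called (adjusted p = 0.089), but was with the replicate number as a block (adjusted p = 0.018). These calls were not firm to the loss of 1 array. From 3 to 5 dpf they were kept in 2 of 6 such fits for insra, 1 for irs2a, 3 for socs3a and 2 for deptor. All of them were lost over this interval with a floor of 4 on the signals (limma adjusted p = 0.055 to 0.079). The floor altered none of their log2 fold changes, and over all probe sets it took the calls from 831 to 409. From 3 to 4 dpf the call of socs3a was kept in 1 of 9, and was also lost after quantile normalization (adjusted p = 0.053), with a floor of 4 (0.117) and with only the compared arrays in the fit (0.083). That of deptor was kept in 4 of 9 and lost with the floor (0.081). The floor altered neither of these log2 fold changes.

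The insulin gene ins was at 4.83 ± 0.75, 3.64 ± 0.11 and 5.40 ± 1.28 at 3, 4 and 5 dpf (SD, n = 3 each) and was not called in any comparison. The second insulin gene insb had a log2 fold change of 0.40 from 3 to 5 dpf (limma adjusted p = 0.084). Of the partners of IGFBPs, igfals, which encodes the acid-labile subunit of the circulating IGF complex, had a log2 fold change of 0.43 (adjusted p = 0.080), and stc2a, related to inhibitors of IGFBP proteases, one of -0.23 (adjusted p = 0.583). Growth hormone gh1 and its receptors ghra and ghrb had log2 fold changes of 0.20, 0.42 and 0.15, and the FoxO genes foxo3a and foxo3b of 0.32 and 0.39. None of these passed the test.

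Hypoxia and fasting genes were listed because igfbp1 responds to both states in fish. Over all probe sets 2.97% were called higher and 2.39% lower from 3 to 5 dpf. Of 26 hypoxia genes measured, 4 were called higher and 0 lower from 3 to 5 dpf, with a median log2 fold change of 0.28. They were epas1b, a hypoxia-inducible factor (1.58, limma adjusted p = 0.022), bnip3 and bnip3lb of mitophagy (1.26, adjusted p = 0.038, and 1.26, adjusted p = 0.028), and ndrg1b (1.26, adjusted p = 0.043). With 1 array left out these calls were kept in 3 of 6 fits for epas1b, 1 for bnip3, 1 for bnip3lb and 0 for ndrg1b. Quantile normalization ended those of bnip3 and ndrg1b (adjusted p = 0.0501 and 0.060), as did the replicate block (0.059 and 0.051). With a floor of 4 on the signals none of these calls from 3 to 5 dpf was kept (limma adjusted p = 0.060 to 0.096). Their log2 fold changes were unaltered by it. From 3 to 4 dpf epas1b was called higher (1.61, adjusted p = 0.0070) and p4ha1b, a collagen prolyl hydroxylase subunit, lower (-1.52, adjusted p = 0.0063), and no gene of the list was called from 4 to 5 dpf.

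Of 27 fasting, glucocorticoid and stress genes measured, 3 were called higher and 0 lower from 3 to 5 dpf, with a median log2 fold change of 0.50. The gene pdk2b encodes a kinase that restrains pyruvate oxidation, and rose from 5.92 ± 0.64 to 8.81 ± 0.24 (2.89, limma adjusted p = 0.011). It was called over each step, with 1.50 from 3 to 4 dpf (adjusted p = 0.021) and 1.39 from 4 to 5 dpf (adjusted p = 0.037). With 1 array left out the later call was kept in 2 of 9 fits and the earlier in 5, and the later was also lost with the replicate block (adjusted p = 0.062), with a mean signal of at least 5 (0.075) and with a floor of 4 (0.141). The floor ended the earlier call too (0.060), and altered neither log2 fold change. The glucocorticoid target gene tsc22d3 rose by 1.81 (adjusted p = 0.0066), of which 1.32 came by 4 dpf (adjusted p = 0.0035), and both calls were kept with any 1 array left out. The third was cebpd, given above beside igfbp1a. The call of cebpd was kept in 2 of 6 and lost with a floor of 4 (limma adjusted p = 0.078), which left its log2 fold change unaltered. Over all lists, 105 of 197 genes were measured, with 11 called higher and 0 lower from 3 to 5 dpf, 5 higher and 1 lower from 3 to 4 dpf, and 1 higher and 0 lower from 4 to 5 dpf. The shares of all probe sets called were 2.97% higher and 2.39% lower from 3 to 5 dpf. They were 1.62% and 1.66% from 3 to 4 dpf, and 0.264% and 0.174% from 4 to 5 dpf. With 1 array left out at a time, the 11 became 1 to 10. They became 1 without 3 dpf replicate 3, 2 without 3 dpf replicate 2, and 4 without 5 dpf replicate 2. In the same fits the 831 calls over all probe sets became 259, 399 and 544, so part of this loss was common to the series.

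**Figure D4:**
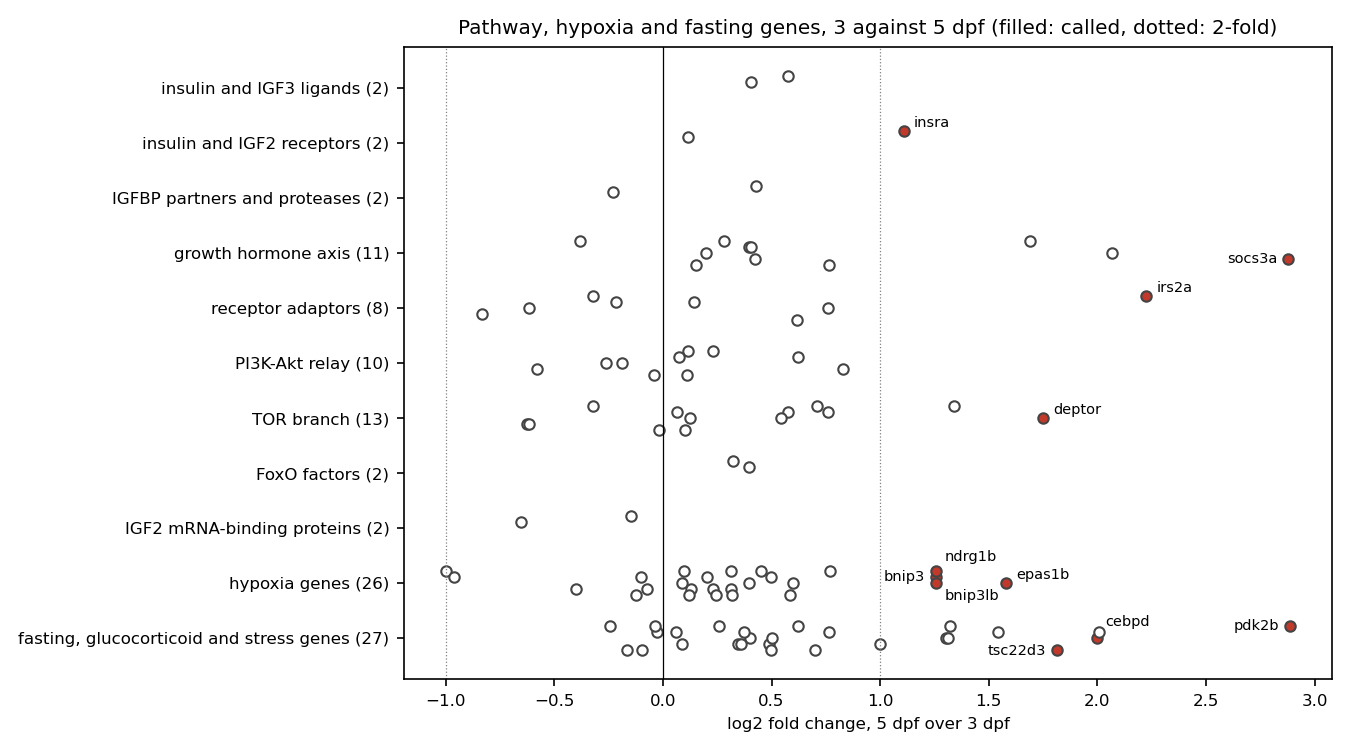
log2 fold change from 3 to 5 dpf (horizontal axis) of the 105 measured genes of the signalling, hypoxia and fasting lists, 1 point a gene, grouped by list (vertical axis, with the number measured). The 11 filled, named points passed both limits, and all of them lie to the right of the 2-fold line.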

How the data were processed

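Eye RNA at 3, 4 and 5 dpf was amplified with a 2-cycle protocol, labelled and hybridised to 9 Affymetrix Zebrafish Genome Arrays. The deposited log2 signals were made by the authors with GCRMA. Neither its version nor whether all arrays were normalized together is stated. GCRMA corrects for background by probe sequence, so signals near the lower end carry little information on change. No further normalization was applied. Of 15617 probe sets, 115 controls were left out and 15502 were tested. Of all probe sets, 10802 carried a single gene symbol of the platform annotation, updated through Entrez identifiers, 135 several and 4680 none. Probe sets were taken as members by symbol alone.

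The analysis used R 4.3.3 and limma 3.58.1 (lmFit, eBayes, Benjamini-Hochberg adjustment over all tested probe sets, with limits of 0.05 and 2-fold). Following the methods of the study, the fit of 3 against 5 dpf used the 6 arrays of these ages. The other comparisons and the difference between steps, added after the values were seen, used all 9. Pairs of probe sets of a gene were compared by limma on their difference within each array, and copies of a gene by exact permutation. A listed gene was read by its brightest probe set. A summed signal is the log2 of the sum of the list's linear signals. The scripts were tested on simulated data. The 3 arrays of each age limit the precision.

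Every member was named. Of the lists, up to 4 called genes per list and comparison were named by largest change, with the ligands, receptors, carriers and FoxO genes whether or not called. A few further marker and likeness genes were named after their values were seen. The members and lists were chosen with earlier results of these data known. Same-numbered arrays deviated together at 3 and 4 dpf. Their deviations from the age means correlated at 0.60, 0.50 and 0.44 for numbers 1, 2 and 3, so these numbers may pair the arrays of 3 and 4 dpf. This rests on the data alone. The main fits of every comparison used no pairing, and the replicate number entered as a block only among the alternatives. At 3 and 5 dpf the correlations were 0.54, 0.01 and 0.04, and at 4 and 5 dpf 0.72, -0.07 and -0.03. Alternatives covered normalization, low values, the replicate block, the arrays in the fit, moderation, the fold limit and each array left out.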

Additional observations from a re-analysis of the deposited data

How the results depend on the processing

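Of the 13 members, 4 were called from 3 to 5 dpf. This count was 2 after quantile normalization, 1 with signals under 4 set to 4, and 2 with the replicate number as a block. It was 5 with the spread of all 9 arrays, with a trend and robust eBayes, and with no fold limit. With a mean signal of at least 5 it was 3, but only 8 of the 13 were tested, without igfbp1b and igfbp3. It was 0 to 3 with 1 array left out. Over all probe sets the 831 calls became 749 after quantile normalization, 409 with signals under 4 set to 4, and 921 with the block. They became 1105 with the spread of all 9 arrays, 1106 with a trend and robust eBayes, and 1755 with no fold limit. With 1 array left out they became 259 to 797. The calls lost first were those of igfbp1a and igfbp1b, whose adjusted p-values from limma were 0.061 and 0.054 after quantile normalization, 0.107 and 0.089 with signals under 4 set to 4, and 0.076 and 0.083 with the replicate block. The second igfbp1a probe set was called with the spread of all 9 arrays (adjusted p = 0.035), with a mean signal of at least 5 (0.042) and with a trend and robust eBayes (0.046). For igfbp3 the change was -0.97 with signals under 4 set to 4, under the 2-fold limit, so that its call was lost. From 3 to 4 dpf the count of 1 became 0 without 4 dpf replicate 3 and was 1 in the other fits, so that it was 0 to 1 with 1 array left out. From 4 to 5 dpf the count of 0 became 1 with a trend and robust eBayes (igfbp1b, adjusted p = 0.033) and 1 with no fold limit (igf2a), and stayed 0 with any array left out.

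Of the listed pathway genes, 11 were called from 3 to 5 dpf. This became 2 with signals under 4 set to 4, and 18 with a mean signal of at least 5, with the spread of all 9 arrays, with a trend and robust eBayes, and with no fold limit. Under the mean limit only 79 of the 105 genes were tested. In that fit 550 of all 8685 probe sets were called higher and 398 lower. The count of listed genes was 1 to 10 with 1 array left out. The 6 from 3 to 4 dpf became 3 with signals under 4 set to 4, 14 with no fold limit, and 3 to 7 with 1 array left out. From 4 to 5 dpf the 1 became 0 with signals under 4 set to 4 and with a mean signal of at least 5, 2 with the replicate block, 4 with a trend and robust eBayes, 7 with no fold limit, and 0 to 3 with 1 array left out. Causes were not tested.

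The replicate block changed no other count by over 1.5 times. With only the 6 arrays of 3 and 4 dpf in the fit, an alternative chosen after seeing the data, it called 1 member and 8 listed genes. Signs turned only for changes that were not called. After quantile normalization igf1ra was -0.12 from 3 to 5 dpf, insb -0.0058 from 3 to 4 dpf, and igfbp3 (S1_at) -0.050 and insrb -0.023 from 4 to 5 dpf. After median centring the same igfbp3 probe set was 0.016 from 3 to 5 dpf. With signals under 4 set to 4 the difference between the igf1rb probe sets was 0.22 from 3 to 4 dpf, and probe sets under 4 on every array gave no value. With 1 array left out signs also turned for uncalled changes. From 3 to 5 dpf the ranges were -0.36 to 0.52 for ghrb, -0.077 to 0.21 for igf1ra, -0.077 to 0.16 for the igf1rb probe set difference, -1.29 to 0.26 for igfbp1a minus igfbp1b, -0.027 to 0.026 for igfbp3 (S1_at) and -0.39 to 0.086 for stc2a. For 3 against 4 dpf the ranges were -0.14 to 0.072 for ghra, -0.57 to 0.16 for ghrb, -0.20 to 0.074 for igf1ra, -0.12 to 0.10 for the igf1rb probe set difference, -0.082 to 0.18 for igf2b, -0.38 to 0.046 for igfbp5b, -0.0072 to 0.029 for insb, -0.019 to 0.41 for ndrg1b and -0.14 to 0.42 for stc2a. For 4 against 5 dpf they were -0.31 to 0.13 for epas1b, -0.023 to 0.36 for foxo3b, -0.16 to 0.63 for ghrb, -0.53 to 0.18 for igf1, -0.061 to 0.20 for the igf1rb probe set difference, -0.093 to 0.42 for the igfbp1a probe set difference and -0.28 to 0.040 for igfbp5b.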
